A study of Solanum virginianum with 36 samples.

Results

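Leaf RNA of an eggplant line resistant to western flower thrips was compared with that of a susceptible line, both after 12 h of feeding by the insect. The comparison rests on 6 of the 36 libraries of the series, chosen by their titles: resistant replicates 1, 2 and 3 and susceptible replicates 1, 2 and 3 at 12 h. The other libraries hold the same lines at 0, 4, 8, 24 and 48 h, also with 3 libraries for each line and time, and entered the fits to estimate the spread. Plants were raised in a greenhouse and sampled after transplanting. The labels give leaf as the tissue and thrips feeding as the treatment of every library, those at 0 h included. They call the replicates biological, without saying which plants or how many stand behind a library, so p-values measure the spread between these libraries. Solanum virginianum is given as the organism, although the design text speaks of eggplants. The labels name neither line beyond its resistance, and a difference between the groups at 12 h is a difference between these 2 genotypes under feeding. Libraries of either line without feeding at 12 h are not among the groups. The labels give hours of feeding and not the hour of the day.

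Western flower thrips pierce single leaf cells and suck out their contents, which leaves silvered, dead patches. Plants answer such damage largely through jasmonate signalling, which switches on proteinase inhibitors, oxidases and the synthesis of phenolic and terpenoid compounds. Quinic acid, named in the title of the series, is made from the shikimate pathway and is joined to caffeic acid to give chlorogenic acid, a major phenolic of eggplant. The files pair no gene ID with a name or description, so none of these pathways, nor the leaf markers that would check the tissue label, can be looked up here. Results are given for IDs as deposited, with the prefix Sme2.5, a scaffold number and a gene number along that scaffold.

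Totals over rows with an ID were 36025139, 39955117 and 34978705 estimated counts in resistant replicates 1, 2 and 3 at 12 h. In the susceptible replicates they were 36743369, 34360637 and 36434303, so depth overlapped between the lines. A count was found for 22716 to 22834 IDs in the resistant and for 24439 to 24468 IDs in the susceptible libraries, and these ranges did not overlap. Correlations of log2(CPM + 1) across the 23719 tested IDs were 0.977 to 0.984 among resistant replicates, 0.973 to 0.982 among susceptible replicates and 0.870 to 0.900 between lines. CPM are estimated counts scaled to the normalized size of each library. A plainer measure is the share of counts that would have to move to other IDs to turn one library into another. At 12 h that share was 6.34 to 12.5% for pairs of replicates and 18.0 to 26.8% for pairs across lines, so each pair across lines differed more than each pair within a line.

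**Figure D1:**
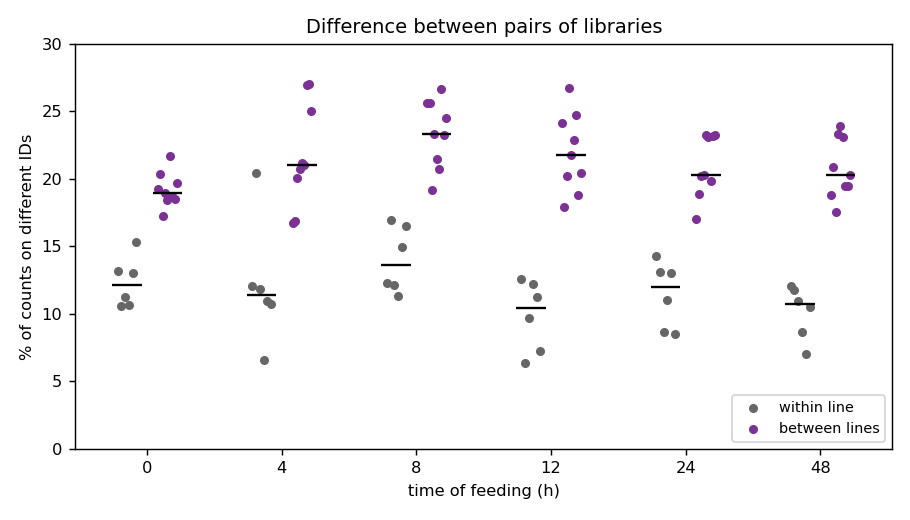
Share of counts lying on different IDs for each pair of libraries of the same time, within a line (grey, 6 pairs per time) and between lines (purple, 9 pairs per time), with the median as a bar. At 12 h the pairs within a line reach 12.5% and the pairs between lines start at 18.0%.

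The lines differed at 12 h for 10596 of the 23719 tested IDs (44.7%), by edgeR's quasi-likelihood test with Benjamini-Hochberg adjustment at 0.05. The resistant line had the higher level for 4838 of these IDs (20.4% of those tested) and the lower level for 5758 (24.3%). This balance turned with limma on log2(FPKM + 1) after scaling FPKM by TMM factors, which gave 3829 higher and 3531 lower, and lower levels were the more numerous under the other alternatives run. The 3 resistant and the 3 susceptible libraries did not overlap for 13951 IDs (58.8%), 6460 with the resistant line higher (27.2%) and 7491 with it lower (31.6%). Of these, 10188 were called (43.0% of those tested), and 3763 were not (15.9%). In bulk leaf RNA, fewer cells of a type and less RNA per cell cannot be told apart. Differences shown to exceed 2-fold in either direction, by a test against that fold with edgeR, were found for 4316 IDs (18.2%). Here the sides were more unequal, with 1515 higher (6.39%) and 2801 lower (11.8%) in the resistant line.

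Small and large differences leaned in opposite directions. Of the 3562 called IDs whose log2 fold change was under 1 in size, 2103 (59.0%) were higher in the resistant line. Between 1 and 2 the counts were near each other, with 1150 higher and 1218 lower. Of the 2508 called IDs at 5 or more on the log2 scale, 780 (31.1%) were higher and 1728 lower. Many of these largest values belong to IDs at or near 0 in 1 line, where a fitted fold change depends on the prior count and is not a measured ratio. The size classes were counted with TMM factors only, and a lean among small differences can move with the scaling of libraries.

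**Figure D2:**
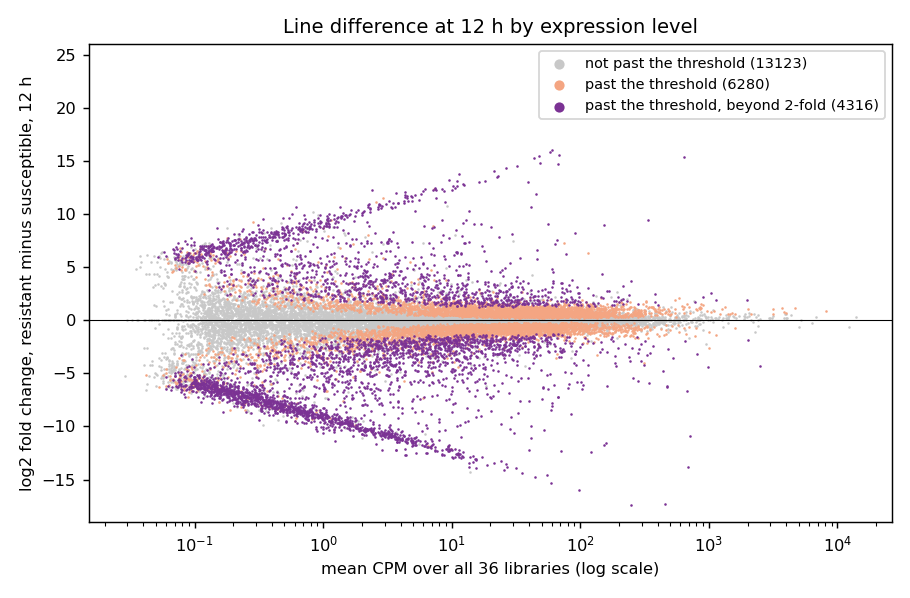
Log2 fold change at 12 h (resistant minus susceptible) of the 23719 tested IDs against their mean CPM over all 36 libraries on a log scale. Orange IDs passed the threshold, purple IDs (4316) also passed the test against 2-fold, and the outer rims hold IDs at or near 0 in 1 line.

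Direction also varied with the level of an ID. Among IDs with a mean under 10 CPM over all 36 libraries, 5379 of 12015 were called, 1970 (36.6%) higher and 3409 lower in the resistant line. Between 10 and 100 CPM, 4403 of 9715 were called, 2352 higher and 2051 lower. At 100 CPM or more, 814 of 1989 were called, 516 (63.4%) higher and 298 lower. Differences beyond 2-fold, in contrast, were more often lower in the resistant line in each of these classes. Under 10 CPM they were 1123 higher and 2249 lower. From 10 to 100 CPM they were 351 and 495, and at 100 CPM or more 41 and 57. CPM are not divided by gene length, so these classes sort IDs by counts and not by molecules. The precision differed as well, since the median standard error of the log2 fold change was 1.19 under 1 CPM and 0.20 from 10 to 100 CPM. The median size of a called log2 fold change was 6.23 in the first of these classes and 0.84 in the second.

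The lean among all called IDs under 10 CPM and at 100 CPM or more held under each of the 18 alternatives run for this comparison. The share higher in the resistant line ranged from 56.6 to 69.6% at 100 CPM or more and from 33.1 to 39.7% under 10 CPM. The same lean was present at the other 5 times, with 56.2 to 70.8% higher at 100 CPM or more and 35.6 to 38.5% under 10 CPM, so nothing here sets 12 h apart. Without susceptible replicate 1, the number of IDs at 100 CPM or more that were higher in the resistant line was 333, with 227 lower.

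Among the 50 IDs with the highest counts at 12 h, 13 were called, 12 of them higher in the resistant line, and only 1 passed the test against 2-fold, with a lower value there. Those 50 IDs took 16.9% of the counts of the tested IDs in the resistant and 14.8% in the susceptible group. Of the 500 most abundant IDs, 200 were called (40.0%), close to the 44.7% of all tested IDs, with 128 higher and 72 lower. The median size of the difference over those 500 was 0.49 on the log2 scale, a 1.40-fold difference.

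IDs called higher in the resistant line held 32.6, 35.3 and 33.7% of the counts of the tested IDs in resistant replicates 1, 2 and 3, and 17.4, 19.7 and 19.2% in the susceptible replicates. IDs called lower held 8.57, 7.72 and 8.22% in the resistant and 23.7, 19.7 and 22.0% in the susceptible replicates. These shares describe the sets chosen by the test and are not a further test. Differences beyond 2-fold concerned a small part of the counts, 5.21 to 5.48% in the resistant and 7.22 to 9.03% in the susceptible libraries.

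**Figure D3:**
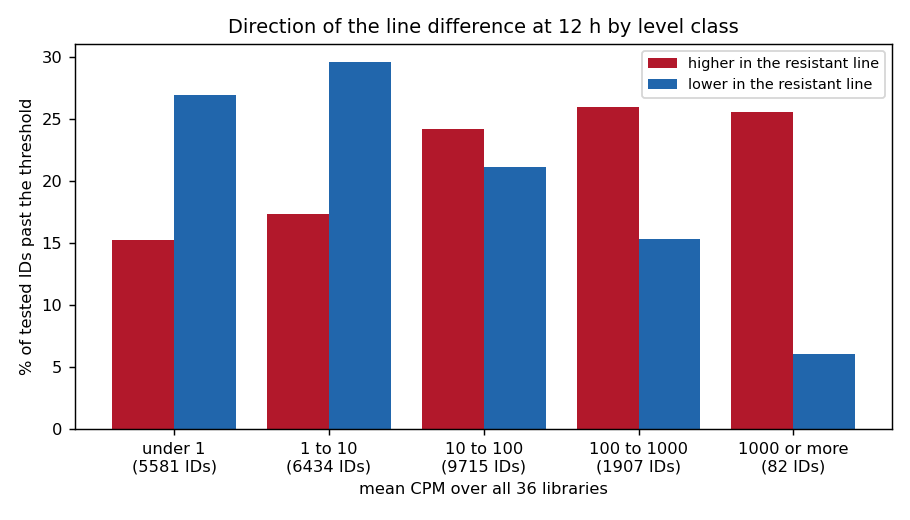
Share of the tested IDs that passed the threshold at 12 h, higher (red) or lower (blue) in the resistant line, in 5 classes of mean CPM over all 36 libraries. The blue bars are taller under 10 CPM and the red bars from 10 CPM up.

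The following 4 IDs were named for the size of their difference among 4936 called IDs without overlap and with at least 5 CPM on average in both groups at 12 h, so that no ratio rests on a group near 0. As extremes of that list their values are chosen by size, and the lack of overlap at 12 h was a condition for being on it. Sme2.5_10090.1_g00001 stood at 164, 213 and 149 CPM in the resistant and at 7.81, 4.39 and 6.03 CPM in the susceptible libraries. Between lines the difference was 4.85 ± 0.46 on the log2 scale (SE, n = 3 per line, edgeR adjusted p = 4.3e-09), a 28.9-fold higher level. It was as large at the other 5 times, from 4.41 to 5.13, with no resistant library below 81.1 CPM and no susceptible one above 7.81 CPM.

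Sme2.5_01569.1_g00003 was at 110, 239 and 34.2 CPM in the resistant libraries at 12 h and at 2.03, 7.31 and 7.63 CPM in the susceptible ones. The resistant replicates spread over a wide range. The difference was 4.50 ± 0.94 (SE, n = 3 per line; edgeR adjusted p = 0.00038). At the other 5 times the line difference was -1.39 to 1.71 and did not pass, with edgeR adjusted p of 0.10 to 0.30.

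Lower in the resistant line, Sme2.5_04984.1_g00003 stood at 8.39, 7.78 and 6.98 CPM there and at 458, 652 and 1178 CPM in the susceptible libraries. The resistant replicates were tight and the susceptible ones spread. The difference was -6.63 ± 1.11 (SE, n = 3 per line; edgeR adjusted p = 2.8e-05), and it passed at each other time too, from -5.71 to -8.85. Sme2.5_07653.1_g00001 was at 25.8, 9.07 and 8.07 CPM in the resistant and at 1002, 464 and 1773 CPM in the susceptible libraries. The groups were far apart, at -6.24 ± 0.99 (SE, n = 3 per line; edgeR adjusted p = 1.3e-05). At the other times the difference was smaller, -2.28 to -4.43, and passed each time, but the test of 12 h against their mean did not (edgeR adjusted p = 0.095). None of the alternatives that gave a value ended any of these 4 calls at 12 h. There were 18 for Sme2.5_10090.1_g00001 and 13 for each of the others, for which the alternatives on the FPKM table gave no value.

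IDs with nearly no count in 1 line were more numerous on the resistant side. In the resistant line, 717 IDs with at least 1 CPM in the susceptible group had at most 3 counts over the 3 libraries, and 633 of these had none. In the susceptible line the corresponding list held 269 IDs, of which 231 had none. A total of 3 estimated counts corresponds to 0.0271 CPM in the resistant and 0.0261 CPM in the susceptible group. This is the cut-off of the lists and not an upper limit on the level of an ID. Levels in the other line were mostly low, with a median of 2.89 CPM for the 717 and 2.43 CPM for the 269. Only 7 IDs of each list reached 100 CPM, the highest at 599 CPM in the susceptible and at 1222 CPM in the resistant line.

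Most of these IDs were nearly without counts at the other times as well. Of the 717, 593 to 632 had at most 3 counts in the resistant libraries of 0, 4, 8 or 24 h, and 442 did at 48 h. The lower number at 48 h came with replicate 3, since over replicates 1 and 2 alone 667 had at most 3 counts at 48 h, against 626 to 649 at the other times. Only 7 to 17 of the 717 reached 1 CPM in the resistant line at another time. Of the 269, 206 to 233 had at most 3 counts in the susceptible line at another time, and 6 to 13 reached 1 CPM.

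The numbering along scaffolds, which played no part in choosing the comparison, was then set beside the calls. The tested IDs lie on 8516 scaffolds and form 12000 pairs with consecutive gene numbers. Both members were called at 12 h in 2264 pairs, and in 1342 of these (59.3%) both differed in the same direction. The split of all calls alone would give 50.4%. Among 423 pairs beyond 2-fold, 329 (77.8%) agreed in direction, against 54.4% from the split, and 254 of the 329 were lower in the resistant line. Pairs on a scaffold share neighbourhood and may share sequence, and they are given as a description. The ID next to one beyond 2-fold was itself beyond 2-fold in 25.1% of pairs, against 18.2% of all tested IDs, while being called at all was as frequent next to a called ID (44.7%) as overall.

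IDs nearly without counts also lay next to each other more often than their share. Of the 17783 IDs that reached 1 CPM in the susceptible group at 12 h, 4.03% had nearly no count in the resistant line. Such an ID came first in 165 of the 7719 pairs with consecutive gene numbers in that set. The follower also had nearly no count in 28 of these 165 cases (17.0%). In the other direction the values were 1.58% of 16986 IDs, 57 of 7277 pairs and 8 of 57 followers (14.0%). The shares of 4.03 and 1.58% also include IDs without a consecutive neighbour in the set. The runs were short, at most 3 consecutive IDs on the resistant and 2 on the susceptible side. No scaffold sequence or genome annotation was used, so neither distances nor copies can be given.

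The difference between lines was then followed over time, to see what set 12 h apart. The count of 10596 called IDs stood above those of the other times, which ran from 8218 before feeding (34.6%) over 9298 (39.2%) at 24 h and 9817 (41.4%) at 4 h up to 10028 (42.3%) at 48 h and 10141 (42.8%) at 8 h. The spread between replicates was also smallest at 12 h. In fits of only the 6 libraries of a time, the biological coefficient of variation was 0.372 at 12 h and 0.408 to 0.442 at the others. Those fits called 10605 IDs at 12 h and 6238 to 8397 at the other times, a wider gap than in the fit of all libraries, which shares 1 spread per ID over the times. The median size of the line difference over the 18138 IDs with a mean of at least 1 CPM was 0.57 on the log2 scale at 12 h, 0.45 at 0 h and 0.52 to 0.56 at the other 4 times.

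Of the 10596 IDs called at 12 h, 4050 (38.2%) were called in the same direction at each of the other 5 times. Shared calls in the same direction with single times ranged from 6022 at 0 h, which is 56.8% of the calls at 12 h and 73.3% of those at 0 h, to 7104 at 48 h (67.0 and 70.8%). These comparisons share no library, but they share a spread estimate per ID. Calls in opposite directions were few, 27 to 64 at 0, 4, 24 and 48 h, and 274 at 8 h. Across the 18138 IDs, the rank correlation of the line difference at 12 h with that at 8 h was 0.53, with 0.65 at 0 h and 0.74 to 0.75 at 4, 24 and 48 h, given as a description since IDs are not independent.

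At no other time called were 1205 of the IDs (11.4% of the calls at 12 h). That alone does not show a difference between times, which was tested with the line difference at 12 h against the mean of the line differences at the other 5 times. This test passed for 584 of 23719 IDs (2.46%), with the difference of resistant minus susceptible shifted up at 12 h for 319 and down for 265. Neither direction led under all alternatives, with 747 up and 787 down by DESeq2, 208 and 225 with a replicate block, 173 and 183 without a filter, 361 and 379 by limma on log2(FPKM + 1), and 92 and 35 without resistant replicate 2 at 12 h. Of the 1205 IDs, 123 (10.2%) passed it. In 283 of the 584 IDs the sign at 12 h was opposite to the mean of the other times, in 224 the difference had the same sign and was larger at 12 h, and in 77 it was smaller. The unadjusted p was under 0.05 for 4327 IDs.

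The count of 584 changed on leaving out single libraries, and most for those of 12 h. By the form of the test, a 12 h library weighs more than one of another time. Larger changes there thus do not mark those libraries as unusual. Each of these fits also filtered anew, which left 24344 to 24432 tested IDs. The count was 72 without susceptible replicate 1 at 12 h, 331 without replicate 2 and 241 without replicate 3. Without resistant replicates 1, 2 and 3 at 12 h it was 231, 127 and 133. It was 382 without susceptible replicate 2 and 377 without susceptible replicate 3 at 4 h, and 392 to 815 without any one of the remaining 28 libraries. Against the mean of 0, 4, 24 and 48 h only, without the 8 h libraries, 373 IDs passed.

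**Figure D4:**
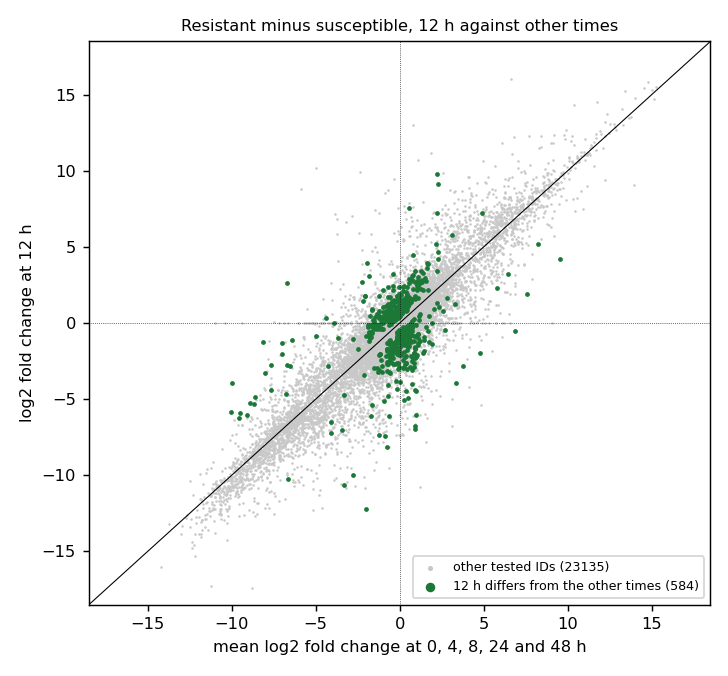
Log2 fold change between lines at 12 h against the mean of the 5 other times for all tested IDs, with the line of equality. The 584 IDs in green passed the test of 12 h against the other times, and 283 of them lie in the quadrants of opposite sign.

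To see which line moved, each line's own level at 12 h was tested against the mean of its other 5 times. This contrast was added once results had been seen. Over all tested IDs it passed for 3523 (14.9%) in the resistant line, 2021 higher and 1502 lower at 12 h, and for 1635 (6.89%) in the susceptible line, 848 higher and 787 lower. Within the 584 IDs, the resistant line alone was higher at 12 h for 189 and lower for 160. The susceptible line alone was higher for 67 and lower for 95. Both lines passed for 36 IDs, 21 of them in opposite directions, and neither for 37. These counts share the 12 h libraries with the test that picked the 584 IDs and are a description of them. Within a line, hours of feeding and hour of the day cannot be told apart.

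Among the 348 of these IDs with at least 5 CPM on average in all 12 groups, the largest shift up was that of Sme2.5_01569.1_g00003, described above, at 3.72 ± 0.96 (SE, n = 3 per group; edgeR adjusted p = 0.039). Its resistant libraries at other times ranged from 15.2 to 251 CPM and its susceptible ones from 6.06 to 158 CPM, so the resistant values at 12 h lay within that line's range and susceptible replicate 1 lay below its own. The call was lost without any one of 8 libraries, among them resistant replicate 2 at 12 h (edgeR adjusted p = 0.18) and susceptible replicate 1 at 12 h (0.20).

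Sme2.5_03303.1_g00002 had the next largest shift up. Its resistant libraries at 12 h were at 76.9, 74.9 and 69.9 CPM and its susceptible ones at 6.18, 7.51 and 9.66 CPM. At 8 h the resistant libraries were at 7.42, 6.09 and 3.75 CPM, below all susceptible ones, which were at 18.7, 9.88 and 9.62 CPM. The line difference at 12 h was 3.25, against -1.20 to 0.82 at the other times, none of which passed (edgeR adjusted p of 0.093 to 0.69). The shift was 3.65 ± 0.64 (SE, n = 3 per group; edgeR adjusted p = 0.0035), and it held without each of the 36 libraries in turn, with adjusted p up to 0.041. Of the 7 other tested IDs on its scaffold, 3 were called at 12 h, 2 higher and 1 lower, and none passed the test against the other times, beside 44.7% and 2.46% of all tested IDs.

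The largest shifts down belonged to a pair of IDs on 1 scaffold. Sme2.5_00662.1_g00003 was at 5.74, 12.7 and 4.06 CPM in the resistant and at 290, 307 and 942 CPM in the susceptible libraries at 12 h. Sme2.5_00662.1_g00001 was at 14.0, 18.7 and 10.2 CPM and at 272, 296 and 948 CPM. In each of the 3 susceptible libraries the pair stood at nearly the same level, and replicate 3 was the highest for both. The shifts were -4.41 ± 1.12 (SE, n = 3 per group; edgeR adjusted p = 0.036) and -4.20 ± 1.08 (0.038).

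The line difference of this pair at 12 h was -6.09 and -5.14, and at 8 h it was -4.42 and -3.22, which also passed (edgeR adjusted p = 0.0014 and 0.0093). At 48 h it was 0.81 and 1.40 and did not pass (edgeR adjusted p = 0.52 and 0.23). Each of these shifts was lost without any one of 5 of the 6 libraries at 12 h, all but susceptible replicate 2. The ID numbered between them had 0 counts over all 36 libraries. The other 9 tested IDs of the scaffold were at -0.78 to 1.04 on the log2 scale at 12 h, 3 of them called, all higher in the resistant line, beside 44.7% called and 20.4% called higher over all tested IDs. Whether the pair are near-identical copies that share reads is not known from the files, so their values may not be independent.

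**Figure D5:**
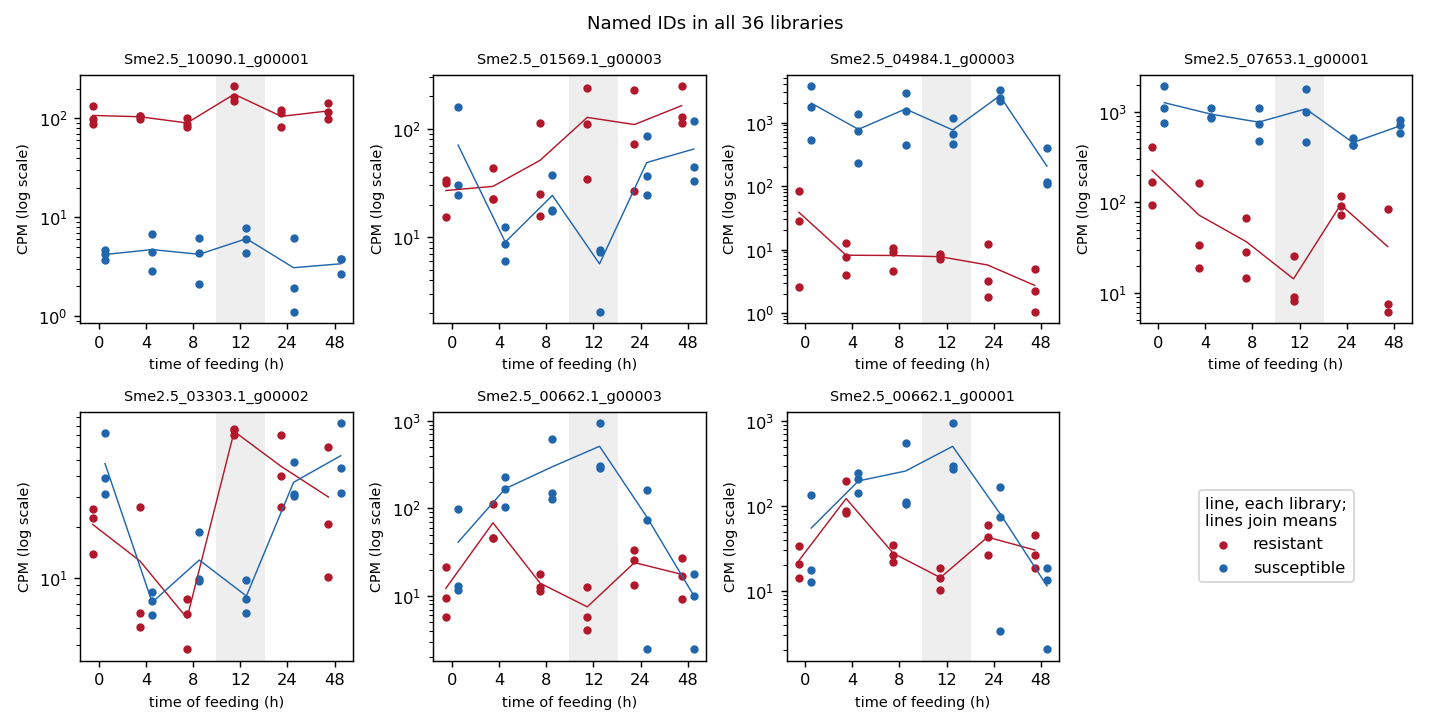
CPM (log scale) of the 7 named IDs in each of the 36 libraries by time of feeding, resistant in red and susceptible in blue, with lines through the means and 12 h shaded. At 12 h the libraries of the lines do not overlap in any panel, and at some other times they do in the panels of Sme2.5_01569.1_g00003, Sme2.5_03303.1_g00002, Sme2.5_00662.1_g00003 and Sme2.5_00662.1_g00001.

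Set against the line difference before feeding alone, that at 12 h differed for 405 of 23719 IDs (1.71%). The difference of resistant minus susceptible was shifted up at 12 h for 207 of them and down for 198. Of these, 247 were among the 584, each shifted in the same direction, and the tests share the 12 h and 0 h libraries. The balance of directions depended on the scale and fit, with 283 up and 431 down by limma on log2(FPKM + 1) as deposited, 343 and 349 with FPKM scaled by TMM factors, and 223 and 404 in a fit of the 0 and 12 h libraries only. The count of 405 fell to 147 without susceptible replicate 1, 162 without resistant replicate 2, 209 without resistant replicate 3 and 251 without susceptible replicate 3 at 12 h. It was 179 without resistant replicate 1 and 222 without susceptible replicate 2 at 0 h.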

How the data were processed

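RNA of leaf was sequenced in 36 libraries, made with a SMARTER mRNA-Seq kit per the labels' protocols. The submitters' processing notes list FastQC and HTSeq 0.6.1 without a role, and the aligner and genome build are not given in the sources used here. The authors deposited whole-number counts per gene ID, treated here as estimated counts (expected counts) because low values do not move with the deposited FPKM in whole-read steps, and FPKM for the first 65535 of the 89388 rows. The 3945 rows without an ID stayed out of library sizes and of the tests of IDs, and were tested once on their own. At 12 h they held 5.12 to 5.19% of the counts in the resistant and 6.01 to 6.58% in the susceptible libraries, without overlap.

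Line differences were tested with edgeR 4.0.16 (quasi-likelihood F test) in R 4.3.3 across the 36 libraries, with a mean for each of the 12 groups, TMM factors and filterByExpr, which left 23719 IDs with 99.97% of the counts. Adjustment was by Benjamini-Hochberg over all tested IDs at 0.05. Standard errors derive from the quasi-likelihood F statistic. The test against 2-fold was glmTreat. Replicates at 12 h differed by far more than sampling noise (chi-square per ID of 37.1 to 108), so each counted as 1 sample. Alternatives were DESeq2 1.42.0 and its size factors, no filter, fits of only the groups compared, replicate blocks, limma 3.58.1 on log2(FPKM + 1) or log2(FPKM + 0.1) for IDs with at least 0.5 FPKM in 3 libraries, and fits without single libraries. FPKM scaled by TMM factors, edgeR on the IDs of the FPKM table, each time against the other times, and the contrasts within a line were chosen after seeing the data. The comparison, lists and rules were chosen with earlier results of these data known. By the rule for IDs without names, the 2 highest and 2 lowest fold changes of each of 2 comparisons were named, among called IDs with at least 5 CPM on average in all groups concerned, and without overlap for the difference at 12 h. The scripts were tested on simulated data.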

Additional observations from a re-analysis of the deposited data

Results flagged for a closer look

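The line difference at 12 h differed from the mean of the other 5 times for 584 IDs, by the edgeR test of that difference, and from that at 0 h for 405 IDs. By the same test, the shift of single IDs between 12 h and the mean of the other times was 3.72 on the log2 scale for Sme2.5_01569.1_g00003 and 3.65 for Sme2.5_03303.1_g00002. It was -4.41 for Sme2.5_00662.1_g00003 and -4.20 for Sme2.5_00662.1_g00001. Of these 4 shifts, that of Sme2.5_03303.1_g00002 was the one that held without each single library. Entries of the count table that carry no gene ID were kept out of the comparisons above and tested separately, and 1793 of 3301 (54.3%) differed between lines at 12 h by edgeR's test, 598 higher and 1195 lower in the resistant line.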

How the results depend on the processing

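The 10596 of 23719 tested IDs called at 12 h became 7166 to 11254 under the alternatives. They were 8617 to 10642 without any one of 7 libraries, those of 12 h and resistant replicate 3 at 48 h. The lowest count came with edgeR on the IDs of the smaller FPKM table, 7166 of 15491 tested, where limma gave 7170 of 15516. Fewer IDs were thus tested in both. The count beyond 2-fold was 2534 with all libraries and a replicate block. It was 2707 on the IDs of the FPKM table, where fewer IDs were tested, and 3645 to 4377 without any one of the same 7 libraries. The count of 584 against the other times became 356 without a filter, 1534 with DESeq2 and 373 without the 8 h libraries. It was 72 to 815 without any one of the 36 libraries. The count of 405 against 0 h became 1317 with DESeq2 and 627 in a fit of the groups compared only. With limma it was 714 on log2(FPKM + 1) and 692 with FPKM scaled by TMM. It was 147 to 383 without any one of the 12 libraries of 0 and 12 h. The cause of these changes was not tested. With at least 5 CPM in the other line, the IDs with nearly no count numbered 242 in the resistant and 81 in the susceptible line, and without single 12 h libraries 708 to 820 and 251 to 329. Neighbours agreed in direction in 77.8% of pairs beyond 2-fold. Of 227 values of the 8 results for named IDs under alternatives, 208 kept their call, 19 lost it and 0 changed sign. All the losses fell on shifts against the other times. They were 9 of 41 values for Sme2.5_01569.1_g00003, 5 of 44 for Sme2.5_00662.1_g00003 and 5 of 41 for Sme2.5_00662.1_g00001. Those of the last pair each came on leaving out a single 12 h library.

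The labels do not say that replicate numbers pair the lines. Deviations of same-numbered 12 h libraries correlated at 0.076, 0.049 and -0.034, and not every library correlated best with its own number. With the replicate block, 8186 IDs (6 libraries) and 8691 (all libraries) were called at 12 h, 433 against the other times and 401 against 0 h, and the shift of Sme2.5_01569.1_g00003 lost its call (edgeR adjusted p = 0.11). Depth limits IDs under 1 CPM, where the median standard error was 1.19 on the log2 scale.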

Other observations

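Each time was also set against the mean of the other 5 by edgeR's test, a comparison chosen after seeing the data. The line difference at 8 h stood apart for 2850 of 23719 IDs (12.0%), that at 48 h for 982 (4.14%), that at 12 h for 584 (2.46%), that at 4 h for 242 (1.02%), that at 24 h for 130 (0.548%) and that at 0 h for 76 (0.32%). At 8 h the line difference was shifted up for 1173 IDs and down for 1677. These 6 tests share all 36 libraries.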
